A study of Mus musculus with 18 samples.

Results

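Of 9 mouse peripheral T-cell lymphomas (mPTCL), 3 carried several-fold more ATAC-seq counts than normal lymphocytes over one stretch of chromosome 3, and they are compared here with the 6 lymphomas that did not. In ATAC-seq a transposase, Tn5, inserts adapters where DNA is accessible, so counts rise with how open a site is and with how many copies of it a cell holds. The 3 lymphomas, mPTCL 1 (labelled 170725), mPTCL 2 (161229) and mPTCL 5 (170612), were selected on their summed counts between 95.4 and 96.0 Mb of chromosome 3 (build mm10), at least about 4-fold above the mean of the 9 normal libraries. They are 3 of 18 libraries in the series. Lymphoma numbers follow the order of deposition and have no other meaning.

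All 9 lymphomas arose after T cells of p53KO genotype were transferred into syngeneic C57BL/6 CD3KO mice, which lack mature T cells of their own, and were sorted from liver cells by markers that the labels do not name. The 9 normal libraries came from wild-type (WT) C57BL/6 mice: 3 of T cells (CD3+ thy1+, spleen), 3 of NKT cells (CD3+, stained by a CD1d tetramer carrying alpha-GalCer, from liver, although their titles carry Sp) and 3 of NK cells (CD27- CD11b+, spleen). Each library was made from 10000 sorted cells. Every lymphoma carried the p53 deletion, so the comparison of 3 with 6 is within one genotype and host. Whether each library stands for its own mouse is not stated in the labels, so a p-value here reflects only the scatter of these samples, which may be technical. DNA copy number was not measured, and "gain" below means a gain of counts.

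Depth, as total counts over 61224 peaks of 500 bp, was 1422130 to 3327815 in the 3 lymphomas, 670358 to 4844441 in the 6 others and 417107 to 9097014 in the normal libraries. Of 25 genes of T-cell identity, 24 had tested peaks, and their summed level was 1106 to 1699 CPM (counts scaled to library size) in the 3 lymphomas and 1282 to 1833 CPM in the 6 others. Cd79a and Ms4a1 of B cells, Csf1r, Adgre1, Lyz2, Mpeg1 and Vsig4 of macrophages, and Alb, Apoa1 and Ttr of hepatocytes had no peak outside the chromosome 3 stretch. The summed hepatocyte markers that did have a peak (4 of 10) ran from 69.6 to 94.2 CPM in the 3 lymphomas and from 43.4 to 80.0 CPM in the 6 others, and the summed myeloid markers (7 of 12) from 128 to 174 CPM and from 122 to 152 CPM. The summed B-cell markers with a peak (5 of 8) ran from 138 to 178 CPM and from 121 to 237 CPM. In the normal libraries these sums were 3.98 to 74.9 CPM (hepatocyte), 89.0 to 190 CPM (myeloid) and 44.5 to 182 CPM (B-cell). By log2 fold change, 4 of 4 hepatocyte, 6 of 7 myeloid and 2 of 5 B-cell genes were higher in the 3 lymphomas, with 0 called. The part of these levels in any result below was not tested. In sorted bulk cells, fewer cells of a type and less signal per cell cannot be told apart.

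The stretch is best known for Mcl1, a BCL2-family protein that holds the pro-death members of the family in check at the mitochondrion and on which developing and mature lymphocytes depend for survival. It is a short-lived protein, removed by the proteasome after tagging by ligases such as FBXW7. Its neighbours include Arnt, the dimer partner of hypoxia-inducible factors and of the dioxin receptor, and the lysosomal proteases Ctss and Ctsk. Others are Ensa, an inhibitor of the phosphatase PP2A in mitosis, and Golph3l, a Golgi protein.

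The promoter sequences of 3 of these genes are shown because each overlaps a peak with large counts and because the 3 lymphomas differ in how far they exceed the others there. All 6 genes of the stretch named by rule (Mcl1 and the 5 with most lymphoma counts) had a promoter in RefSeq (GRCm38.p6, the same assembly as mm10). The 250 bases before the start that RefSeq's promoter table gives for each gene are printed 5′ to 3′ on the gene's strand. Capitals mark motif letters found on either strand. The peak overlaps 158 of these bases at Mcl1, 57 at Ensa and 249 at Golph3l, so a marked motif can lie outside it.
Mcl1, chr3:95658471-95658720, plus strand: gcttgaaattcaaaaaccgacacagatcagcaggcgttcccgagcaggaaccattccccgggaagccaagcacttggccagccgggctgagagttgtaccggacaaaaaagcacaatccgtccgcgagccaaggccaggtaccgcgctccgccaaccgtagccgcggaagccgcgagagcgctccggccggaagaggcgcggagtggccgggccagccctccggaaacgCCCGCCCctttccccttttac
Ensa, chr3:95624730-95624979, plus strand: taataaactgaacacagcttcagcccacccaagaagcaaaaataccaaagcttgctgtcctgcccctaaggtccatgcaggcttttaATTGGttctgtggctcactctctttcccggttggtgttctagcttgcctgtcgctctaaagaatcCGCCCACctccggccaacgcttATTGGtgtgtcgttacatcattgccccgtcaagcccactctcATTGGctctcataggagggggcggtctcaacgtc
Golph3l, chr3:95588684-95588933, plus strand: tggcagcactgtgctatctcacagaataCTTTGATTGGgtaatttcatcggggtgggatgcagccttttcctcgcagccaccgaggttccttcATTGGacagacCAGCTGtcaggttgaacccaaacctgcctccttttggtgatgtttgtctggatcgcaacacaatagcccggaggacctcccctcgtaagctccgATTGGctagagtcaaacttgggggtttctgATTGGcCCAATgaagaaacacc
The Mcl1 promoter held 1 match to the SP/KLF motif (GGGCGGG), which 23.6% of 31396 promoters of the same length on the autosomes hold. Ensa held 1 EGR motif (GTGGGCG, in 7.06% of promoters) and 3 NF-Y motifs (CCAAT, 33.7%). Golph3l held 5 NF-Y motifs, 1 E-protein motif (CANCTG, 44.9%) and 1 TCF/LEF motif (CTTTGAT, 3.23%), the last overlapping the first NF-Y match. Among the 30 promoters between 95.35 and 96.0 Mb, 6 held the SP/KLF motif and 10 the NF-Y motif. A match is a run of letters and not a measured binding site.

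The values that chose the 3 lymphomas were as follows, and no test is given for them. Counts between 95.4 and 96.0 Mb were 5.62-fold the normal mean in mPTCL 1, 5.59-fold in mPTCL 2 and 4.19-fold in mPTCL 5. The closest lymphoma on the other side of the threshold was mPTCL 8 at 1.19-fold, and the 6 others began at 1.01-fold. Normal libraries ran from 0.780-fold in NKT 2 to 1.58-fold in NK 1, so no library fell between 1.58-fold and 4.19-fold. Over the wider block from 94.9 to 96.5 Mb, with 781 peaks, mPTCL 1 had 1.47% of its counts (95% Wilson interval 1.45% to 1.48%), mPTCL 2 had 2.22% (2.20% to 2.25%) and mPTCL 5 had 1.90% (1.88% to 1.91%). The 6 others had 0.466% to 0.543%, and the normal libraries 0.365% to 0.596%. The intervals reflect counting error alone. They may be too narrow even for that error, because amplified reads that carry no molecular barcode can be copies of one fragment.

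The 3 lymphomas did not share one outline. Signal was summed in bins of 50 kb and divided by the mean of the 6 other lymphomas, and each stretch was followed outward from its centre while bins with at least 3 peaks stayed at or above 2-fold, a rule set after the profile was seen. In mPTCL 1 the stretch was 0.65 Mb wide (95.35 to 96.0 Mb, 13 bins). In mPTCL 2 it was 1.45 Mb wide (95 to 96.45 Mb, 28 bins), and in mPTCL 5 it was 1.6 Mb wide (94.95 to 96.55 Mb, 31 bins). Every one of those bins was above the highest of the 6 other lymphomas. The bound and the selecting counts fix this, since the 6 others reached at most 1.62-fold in these bins. With a bound of 2.5-fold the widths were 0.6, 1.4 and 1.6 Mb.

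Height differed along the stretch as well. In mPTCL 1 the median bin was 4.11-fold, but the 3 bins from 95.5 to 95.65 Mb, which hold Ctss, Hormad1, Golph3l and Ensa, stood at 8.77-, 9.04- and 10.0-fold. The next bin, with Mcl1 and Adamtsl4, was 5.37-fold, and the bins from 95.7 to 96.0 Mb were 3.28- to 4.11-fold. The first bin beyond 96.0 Mb was 1.59-fold. In mPTCL 2 the median bin was 4.55-fold, the highest was 6.99-fold at 95.7 to 95.75 Mb (Ecm1 and Tars2), and the signal went from 4.22-fold at 96.4 Mb to 0.698-fold at 96.45 Mb in 1 step. In mPTCL 5 the median bin was 3.94-fold, with the highest, 5.79-fold, at 95.35 to 95.4 Mb, where the promoter of the histone methyltransferase gene Setdb1 lies. The 2 Mb that follow 96.55 Mb (132 peaks) were at 1.82-fold in mPTCL 5, against 0.944-fold in mPTCL 1, 0.734-fold in mPTCL 2 and 0.836- to 1.36-fold in the 6 others. On the rest of the chromosome further along, mPTCL 5 was at 0.788-fold. Over the 2 Mb on the near side (56 peaks), mPTCL 2 was at 1.74-fold, above the 0.784- to 1.45-fold of the 6 others, mPTCL 5 was at 1.36-fold and mPTCL 1 at 1.03-fold. So mPTCL 5 lay above the 6 others on the far flank and mPTCL 2 on the near one. The bins of the stretch ran from 2.21- to 10.0-fold in mPTCL 1, from 2.49- to 6.99-fold in mPTCL 2 and from 2.65- to 5.79-fold in mPTCL 5.

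**Figure D1:**
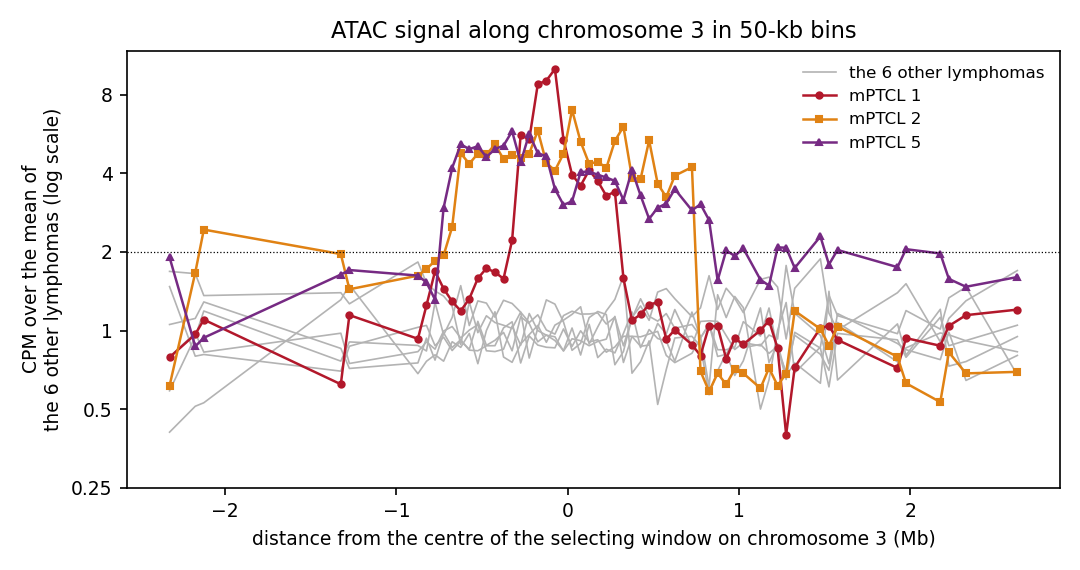
CPM in 50-kb bins with at least 3 peaks, divided by the mean of the 6 other lymphomas (log axis), against the distance in Mb from the centre of the selecting window; grey lines are the 6 others and the dotted line is 2-fold. The 3 lymphomas share 0.65 Mb, and mPTCL 1 alone reaches 10.0-fold there.

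The stretch common to all 3 was therefore that of mPTCL 1, 95.35 to 96.0 Mb, with 434 peaks and 33 gene symbols whose block peaks all lie in it. Setdb1, just outside by this count because its peaks cross the edge, was at 1.64-fold the mean of the 6 others in mPTCL 1, 4.77-fold in mPTCL 2 and 5.91-fold in mPTCL 5. Genes nearer the start of the block, such as the ceramide synthase gene Cers2, stood at 1.55-fold for mPTCL 1, 3.44-fold for mPTCL 2 and 5.02-fold for mPTCL 5. On the far side, the deubiquitinase gene Otud7b was at 1.10-fold, 4.24-fold and 3.14-fold. These genes were more than 3-fold the mean in mPTCL 2 and mPTCL 5 and less than 2-fold in mPTCL 1. Even so, mPTCL 1 exceeded the highest of the 6 others at Setdb1 (74.8 against 62.1 CPM) and narrowly at Cers2 (103 against 99.7 CPM), and lay inside their range at Otud7b.

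Mcl1 spans 95656944 to 95663179 in RefSeq (plus strand). The promoter printed above lies inside that span, as RefSeq's promoter table gives a later start. The gene had 17 annotated peaks with a summed level of 709 CPM in mPTCL 1, 523 CPM in mPTCL 2 and 464 CPM in mPTCL 5. The 6 others had a lowest level of 119 CPM, a median of 127 CPM and a highest of 138 CPM. Normal T cells were at 110 to 180 CPM, NKT cells at 96.4 to 124 CPM and NK cells at 73.8 to 138 CPM. The 3 lymphomas thus lay above every other library, by 5.55-, 4.09- and 3.63-fold over the mean of the 6, while the 6 lay within the range of the normal cells. These counts are part of what selected the 3 lymphomas.

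Single Mcl1 peaks did not all scale alike. The promoter peak that starts at 95658562 had 261 CPM in mPTCL 1, 123 CPM in mPTCL 2 and 174 CPM in mPTCL 5, against a lowest of 21.0, a median of 45.5 and a highest of 63.4 CPM in the 6 others. That is 5.63-, 2.65- and 3.74-fold the mean of the 6. The peak at the gene's far end that starts at 95662807, in the 3′ UTR by the deposited annotation, had 16.5, 35.3 and 12.8 CPM in mPTCL 1, mPTCL 2 and mPTCL 5, and 1.07 to 3.94 CPM in the 6 others. There mPTCL 2 was at 10.9-fold and mPTCL 1 at 5.09-fold. The fold in mPTCL 2 varied between peaks of one class: the other promoter peak, starting at 95657531, was at 5.47-fold, and the exonic peak starting at 95659228 at 3.03-fold.

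Across the 5 other genes with most counts, mPTCL 1 varied most. At Golph3l (22 peaks) the summed level was 1128 CPM in mPTCL 1, 456 CPM in mPTCL 2 and 468 CPM in mPTCL 5, with 84.7 to 154 CPM in the 6 others, or 10.6-, 4.30- and 4.41-fold their mean. At Ensa (16 peaks) it was 1493, 497 and 517 CPM in the same order and 120 to 203 CPM in the 6 others, or 10.3-, 3.43- and 3.57-fold. Arnt (37 peaks) stood at 877, 648 and 786 CPM against 128 to 172 CPM, or 5.68-, 4.20- and 5.10-fold. Adamtsl4, which encodes a matrix protein, was at 5.25-, 4.84- and 2.72-fold, and Rprd2, whose product binds RNA polymerase II, at 3.87-, 4.45- and 4.05-fold. At none of these genes did the 3 lymphomas overlap the 6 others, but their counts are part of what selected the 3. Rprd2 was nearly even among the 3, whereas Golph3l and Ensa were more than 2-fold higher in mPTCL 1 than in mPTCL 2 and mPTCL 5.

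Over all 28 symbols of the common stretch with at least 500 lymphoma counts, the fold over the 6 others ran from 3.06 to 16.6 in mPTCL 1 (median 4.39), from 2.96 to 9.93 in mPTCL 2 (median 4.86) and from 2.72 to 5.89 in mPTCL 5 (median 4.07). The lowest member in mPTCL 1 was 4930558C23Rik at the near edge, and the highest was the pseudogene Rps10-ps1, whose reads could be shared with near-identical copies and whose value is therefore uncertain. All 3 lymphomas exceeded all 6 others at each of the 33 symbols, a count that the selection largely sets. Outside the block, 1.59% of genes had no overlap between the 3 and the 6 in either direction.

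**Figure D2:**
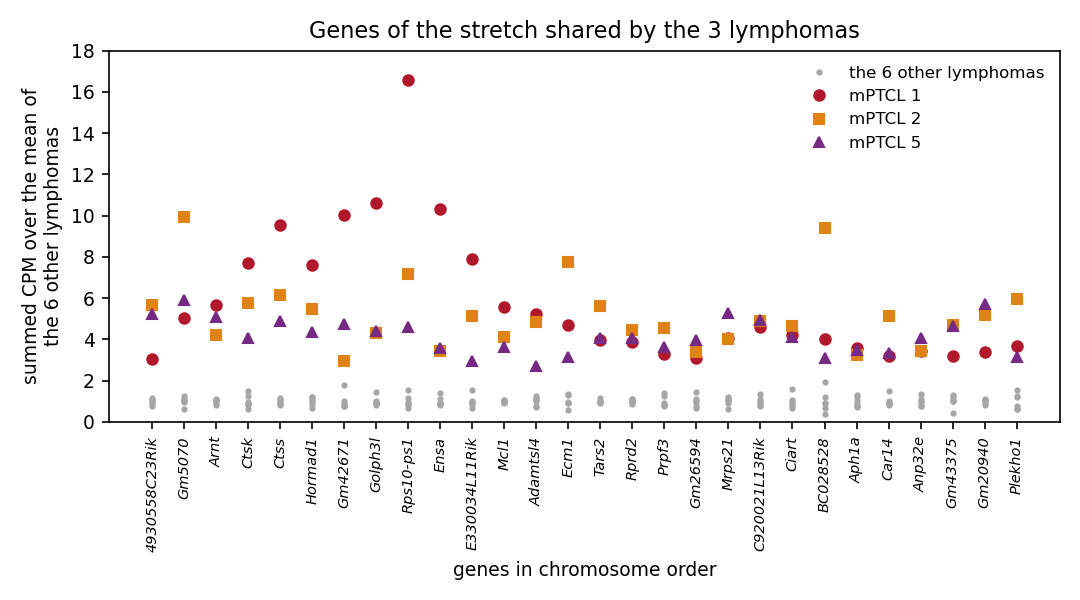
Summed CPM of each gene's peaks divided by the mean of the 6 other lymphomas, for the 28 symbols of the common stretch with at least 500 counts, in chromosome order; grey dots are the 6 others. mPTCL 1 stands highest around Golph3l and Ensa (10.6- and 10.3-fold) and below 5-fold toward the far end, where mPTCL 2 is often highest.

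The same counts are described here by class of peak, with no test, since they selected the 3 lymphomas and many of these peaks are weak in libraries without the gain. Between 95.4 and 96.0 Mb the median log2 ratio per peak to the mean of the 6 others (0.5 CPM added to both) was 2.15 in mPTCL 1, 2.36 in mPTCL 2 and 1.76 in mPTCL 5 over 419 peaks. At the 74 promoter peaks it was 1.93, 2.26 and 1.84, at the 122 intronic peaks 2.28, 2.38 and 1.79, and at the 58 intergenic peaks 1.69, 2.38 and 1.59. Of the 419 peaks, 380 were above all 6 others in mPTCL 1, 407 in mPTCL 2 and 371 in mPTCL 5. All 419 lie in the selecting window, and the matching share outside the block is not given here. Ratios at promoters, introns and the space between genes were all well above 0 in each of the 3.

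In mPTCL 2 the fold differed between peaks of low and high level in normal cells. At 357 peaks under 5 CPM in the normal mean, the summed signal was 6.29-fold that of the 6 others in mPTCL 2, and at 14 peaks of 20 CPM or more it was 2.95-fold. In mPTCL 1 those values were 5.21- and 5.77-fold, and in mPTCL 5 they were 3.86- and 3.99-fold. Outside the block mPTCL 2 also went from 1.21-fold at 17296 low peaks to 0.819-fold at 14452 high ones, while mPTCL 1 went from 0.908- to 1.12-fold. The part of this library-wide tilt in the mPTCL 2 values was not tested.

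The peak list itself was dense there. The table held 488 peaks per Mb in the block and 698 per Mb between 95.4 and 96.0 Mb, against 18.7 per Mb on the rest of chromosome 3. A typical block peak was weak without the gain: its median level was 3.23 CPM in the 6 others and 2.80 CPM in normal cells, against 9.71 and 8.69 CPM outside the block. In a second, smaller deposited table (27727 peaks) the density was 47.5 per Mb in the block and 9.02 per Mb on the rest of the chromosome. Many intervals of the block are thus listed as peaks although they carry little signal in libraries without the gain. The rule by which peaks were chosen is not given in the sources used here.

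One short window outside the block also separated the 3 lymphomas from the 6. Overlapping windows of 600 kb were moved along the autosomes, and 6988 windows had at least 5 peaks and a mean of 20 normal counts. All 3 lymphomas reached 4-fold over the normal mean, and none of the 6 others did, in 3 windows. Of these, 2 lay on the block, with 390 and 419 peaks. The remaining window, chromosome 17 from 9.0 to 9.6 Mb, had 9 peaks and stood at 5.10-fold in mPTCL 1, 5.10-fold in mPTCL 2 and 4.45-fold in mPTCL 5, with mPTCL 9 at 3.44-fold and the rest of the 6 at 1.94- to 2.67-fold. Single lymphomas each had 9 to 39 further stretches past 4-fold outside the block. The best-filled of these in the 3 lymphomas, near 113 Mb of chromosome 5, held 40 to 65 peaks per window and was also past 4-fold in mPTCL 4, 8 and 9.

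With the block set aside, no peak was called different between the 3 lymphomas and the 6 others. Of 58897 peaks tested with edgeR's quasi-likelihood test, 0 passed an adjusted p of 0.05 (0.0%, Benjamini-Hochberg over all peaks), and the lowest adjusted p was 0.834. At an unadjusted p under 0.05 there were 1901 peaks, 1159 with higher and 742 with lower values in the 3 lymphomas, which is 3.23% of those tested. Without mPTCL 2 these became 732 higher and 1067 lower. DESeq2 called 3 peaks (0.00509%), and limma after cyclic loess scaling called 0. The biological coefficient of variation among the lymphomas was 0.454, and the median standard error (SE) of a log2 fold change was 0.50. Counts summed per gene gave the same count: 0 of 20033 genes passed (0.0%), 598 had an unadjusted p under 0.05, DESeq2 called 3 (0.015%) and limma 0. A missed threshold with 3 and 6 libraries does not show that accessibility was alike.

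The 10 peaks below are named by lowest unadjusted p, 5 in each direction, among those with a symbol and no overlap between the 3 and the 6. None was called by edgeR. Of all 58897 peaks, 944 had no overlap (1.6%), and since the named peaks were required to have none, their separation carries no weight of its own. Of the 5 with higher values, 2 lay on chromosome 15. An intronic peak of Oxr1, a gene of oxidative-stress resistance (chr15:41856522-41857022), had 37.4 CPM in mPTCL 1, 38.5 CPM in mPTCL 2 and 32.0 CPM in mPTCL 5. The 6 others had 6.58 to 12.2 CPM there, with a median of 11.4. The log2 fold change was 1.77 ± 0.32 (SE, n = 3 and 6; edgeR adjusted p = 0.834), and DESeq2 called it (adjusted p = 0.00958).

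A peak in an intron of E330035G20Rik (chr12:112403082-112403582) had 46.4, 22.4 and 9.90 CPM in mPTCL 1, mPTCL 2 and mPTCL 5, and 2.41 to 5.89 CPM in the 6 others. The 3 values differ among themselves more than 4-fold, and mPTCL 5 lies closest to the others. Its log2 fold change was 2.68 ± 0.48 (SE; edgeR adjusted p = 0.834; DESeq2 adjusted p = 0.0112). Peaks by C1qtnf6, Usp46 (a deubiquitinase) and Rhoq had log2 fold changes of 1.82, 1.64 and 1.77, each with an edgeR adjusted p of 0.9999. At Usp46 the 3 lymphomas had 24.2 to 31.4 CPM and the 6 others 6.78 to 14.0 CPM.

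Among the 5 with lower values was the promoter peak of Zfp652, a zinc-finger gene (chr11:95748259-95748759). It had 4.49, 6.41 and 3.49 CPM in mPTCL 1, mPTCL 2 and mPTCL 5, and 11.2 to 34.5 CPM in the 6 others, with T cells at 2.18 to 6.15 CPM, NKT cells at 6.37 to 10.7 CPM and NK cells at 8.44 to 28.3 CPM. The 3 lymphomas were therefore near the T-cell range at this peak. The log2 fold change was -2.26 ± 0.50 (SE; edgeR adjusted p = 0.9999). An intronic peak of Adam19, a membrane metalloprotease, had 0.582 to 3.20 CPM in the 3 and 4.81 to 23.4 CPM in the 6 others, and NKT cells had 47.2 to 66.9 CPM there. Peaks by Enpp4, Gm20388 with Def8, and Gm2682 had log2 fold changes of -2.35, -2.14 and -2.01. The peak DESeq2 called besides Oxr1 and E330035G20Rik (chr10:118628025-118628525) is named after its values were seen. It lies between genes, 182.1 kb from the nearest coding gene, Ifng, and had 2.99, 1.28 and 4.08 CPM in mPTCL 1, mPTCL 2 and mPTCL 5 and 6.51 to 37.7 CPM in the 6 others.

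**Figure D3:**
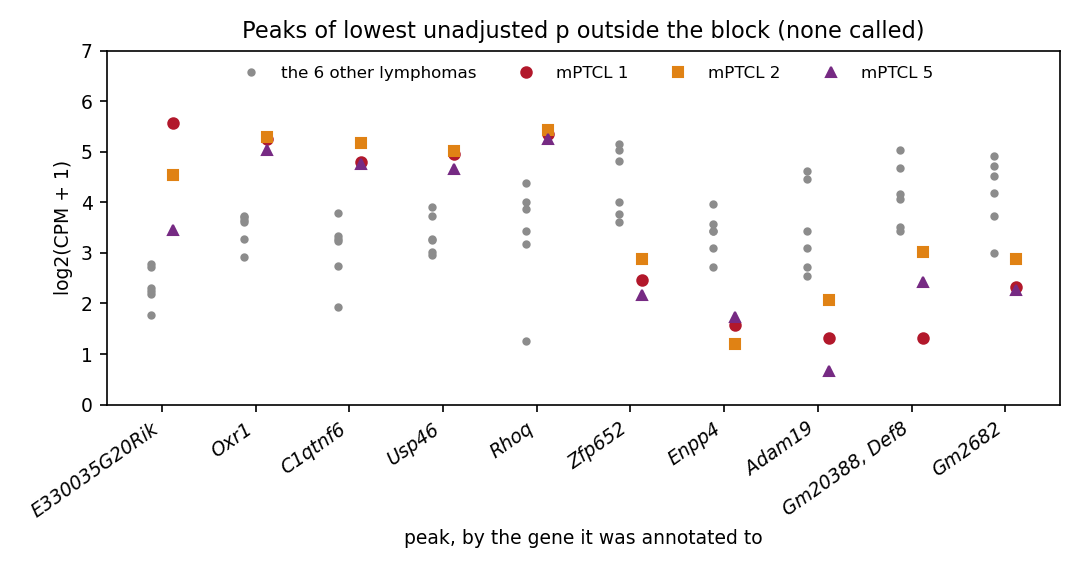
log2(CPM + 1) in each of the 9 lymphomas at the 10 peaks of lowest unadjusted p outside the block, 5 with higher and 5 with lower values in the 3 lymphomas; grey dots are the 6 others. The groups do not overlap because the peaks were chosen so, and none passed an adjusted p of 0.05 in edgeR.

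Peaks on other chromosomes were ranked by how closely they followed the block level across the 9 lymphomas. Among 40346 peaks with a mean of at least 20 counts, 25 had a Spearman rho of 0.9 or more, and the highest, 0.95, belonged to intronic peaks of Sdk2, an adhesion gene, and Usp46. A peak flanking Gm29767, an intronic peak of Ptger4, a prostaglandin receptor gene, and an intergenic peak on chromosome 15 had a rho of 0.933. The order rests on 9 values, and the 3 high block levels set much of it. How many of 40346 peaks would reach such a rho by chance was not measured, so the 25 carry no weight of their own.

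Chromosome 15 carried more of the nominal differences than its size. It held 364 of the 1159 higher peaks at an unadjusted p under 0.05 (31.4%), and 7.96% of the peaks tested. The median log2 fold change of its peaks was 0.35, against 0.00 over all peaks, and the next highest chromosome, 12, had 0.19. As a share of all counts outside the block, chromosome 15 was above the normal mean in every lymphoma: by 0.69 on the log2 scale in mPTCL 1, 1.27 in mPTCL 2 and 0.87 in mPTCL 5, and by 0.52 to 0.72 in the 6 others. mPTCL 1 overlapped the 6, and mPTCL 2 stood apart from all. The 3 exceeded the 6 by 0.33 (0.94 ± 0.30 and 0.61 ± 0.08, SD; exact permutation test over samples, two-sided p = 0.0476, adjusted p = 0.754 over 19 autosomes). Without mPTCL 2 the difference was 0.16.

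No autosome passed after adjustment in the exact permutation test, and chromosome 15 was the one of 19 with an unadjusted p under 0.05. The smallest p this design can give is 0.0238, so a single autosome could not pass after adjustment over 19. The test therefore cannot show that the shares were alike. On chromosome 3 outside the block, mPTCL 1 was at -0.12, mPTCL 2 at 0.0019 and mPTCL 5 at -0.07, with the 6 others at -0.34 to 0.35. The higher counts of the block were thus not those of the whole chromosome. Chromosome 10 stood at -0.51 ± 0.08 in the 3 and -0.36 ± 0.10 in the 6, and chromosome 11 at 0.35 ± 0.12 and 0.52 ± 0.15 (SD), with adjusted p = 0.754 for both by the permutation test.

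**Figure D4:**
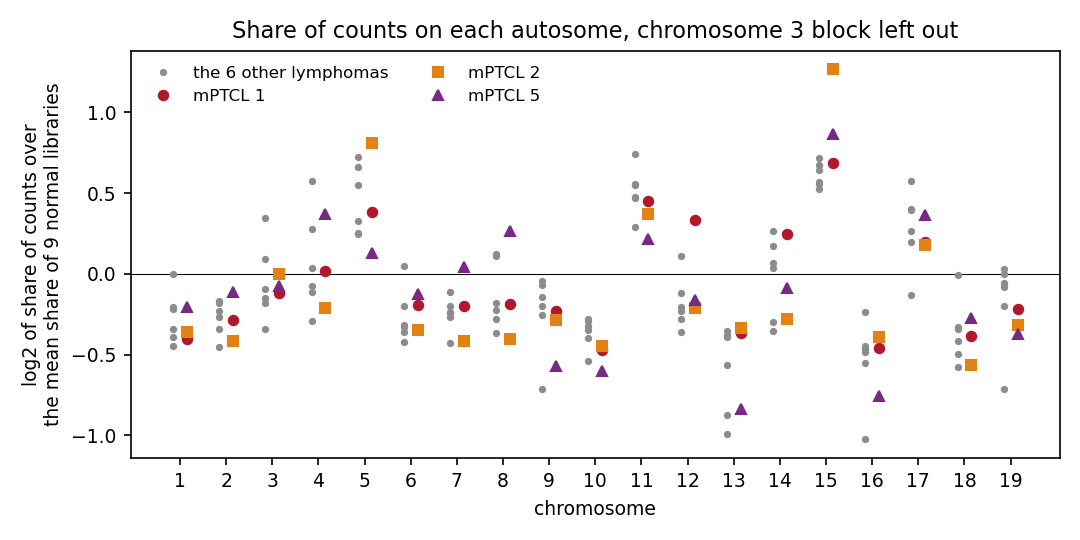
log2 of each autosome's share of counts over the mean share of the 9 normal libraries, with the chromosome 3 block left out; grey dots are the 6 others. Chromosome 15 is above 0.5 in all 9 lymphomas and highest in mPTCL 2 (1.27), and on chromosome 3 the 3 lymphomas lie within the range of the 6.

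Bcl2-family genes were of interest beside Mcl1, since they act at the same step. Bcl2, which like Mcl1 guards the mitochondrion, had a summed level over 12 peaks of 42.6 CPM in mPTCL 1, 71.6 CPM in mPTCL 2 and 43.9 CPM in mPTCL 5. In the 6 others it was 172 CPM in mPTCL 3, 213 CPM in mPTCL 4, 41.3 CPM in mPTCL 6, 176 CPM in mPTCL 7, 178 CPM in mPTCL 8 and 61.6 CPM in mPTCL 9. Of the 6 others, 4 were thus within or above the 155 to 178 CPM of T cells, while mPTCL 6 and mPTCL 9 were as low as the 3. The log2 fold change was -1.42 ± 0.43 (SE; edgeR unadjusted p = 0.00448, adjusted p = 0.9999), and with promoter peaks alone it was -0.70. NKT cells had 244 to 297 CPM.

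Other genes of the family and of apoptosis did not reach the threshold either. Birc5, which encodes survivin, an inhibitor-of-apoptosis protein outside the BCL2 family, had 98.4, 78.5 and 81.6 CPM in mPTCL 1, mPTCL 2 and mPTCL 5 and 107 to 182 CPM in the 6 others (log2 fold change -0.68 ± 0.23, SE; edgeR adjusted p = 0.9999). Bcl2l1, which encodes BCL-XL, had a log2 fold change of -0.33 ± 0.26, and Bcl2l11, which encodes the pro-death BIM that MCL1 binds, one of -0.12 ± 0.21. Of 25 tested genes of the family and of apoptosis, 0 were called, 19 had a value below 0, and the median was -0.12 against -0.0026 over all 20033 genes. Their summed level was 1328 to 1530 CPM in the 3 and 1600 to 1814 CPM in the 6 others, and 1256 to 1487 CPM against 1511 to 1636 CPM with Bcl2 left out. This was the one list of 20 whose sums did not overlap, which carries little weight of its own. Among all single genes tested, 1.59% had no overlap and 49.5% had a value above 0. Values below 0 also prevailed among p53 targets (19 of 26) and genes of cell cycle and growth (21 of 29). Of the 20 lists, 8 had a median above 0. Of the genes that control MCL1 protein, 7 of 8 were tested and 0 called, with Fbxw7 at 0.12 ± 0.24 (SE).

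Lymphocyte genes showed no called difference. Trp53, the gene deleted in every lymphoma's cells of origin, kept counts at its 3 peaks: 84.4, 55.1 and 55.1 CPM in mPTCL 1, mPTCL 2 and mPTCL 5 and 66.5 to 108 CPM in the 6 others. The labels do not give the deleted part, so these peaks check nothing. Myc, the growth gene on chromosome 15, was at 162, 215 and 136 CPM in the 3 and 109 to 274 CPM in the 6 (log2 fold change -0.03 ± 0.26, SE). Over 20 tested NK-receptor genes the median was 0.27 with 0 called. Klrk1 (NKG2D), an activating receptor, had 61.4, 56.5 and 39.9 CPM in the 3 and 23.0 to 46.7 CPM in the 6, so mPTCL 5 lay inside the range of the others. Ncr1 (NKp46) had 22.5, 17.9 and 17.9 CPM in the 3 and from 0 to 24.3 CPM in the 6. The T-cell identity list had a median of 0.04 and the T-cell transcription factors -0.05, with Bcl11b at 0.22 ± 0.25 and 0 called in both.

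Among genes of cytokine signalling, Socs2 was called by one of the tools. Socs2, a feedback inhibitor of JAK-STAT signalling on chromosome 10, had 25.3, 28.9 and 31.0 CPM in mPTCL 1, mPTCL 2 and mPTCL 5 and 49.3 to 82.1 CPM in the 6 others. T cells were at 24.5 to 26.9 CPM, NK cells at 25.5 to 33.1 CPM and NKT cells at 66.9 to 77.0 CPM. The 3 lymphomas thus lay in the range of T and NK cells. Of the 6 others, mPTCL 3, 7 and 9 (68.0 to 82.1 CPM) lay within or above the NKT range. The levels of mPTCL 4, 6 and 8 (49.3 to 57.5 CPM) fell between the NK and NKT ranges. The log2 fold change was -1.17 ± 0.25 (SE; edgeR adjusted p = 0.9999; DESeq2 adjusted p = 0.0405). Its relative Cish was at -0.87 ± 0.37, and over the 26 tested genes of the list the median was -0.0016 with 13 on either side of 0.

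Prdm1, Plcg2 and Syk also had no overlap between the groups, and none was called. Of all 20033 genes, 318 had no overlap (1.59%). These 3 were named for a low p within their lists, so their separation carries little weight of its own. Prdm1, which encodes the repressor BLIMP-1, had 88.1, 99.9 and 115 CPM in the 3 and 127 to 194 CPM in the 6 others (log2 fold change -0.62 ± 0.22, SE; edgeR adjusted p = 0.9999). Plcg2, which signals below NK and B-cell receptors, had 91.4 to 113 CPM in the 3 and 53.6 to 82.2 CPM in the 6 (0.53 ± 0.20, SE; same adjusted p). Syk, a kinase below the same receptors, went the other way in value, with 4.69, 7.58 and 7.49 CPM in the 3 and 7.66 to 19.5 CPM in the 6 (-1.02 ± 0.46, SE; same adjusted p), a gap that is small at its nearest libraries. Fbln1, a matrix gene on chromosome 15 that DESeq2 called with E330035G20Rik and Socs2, was at 120, 156 and 120 CPM against 43.2 to 78.9 CPM (edgeR adjusted p = 0.705), and it is named after its values were seen.

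Lineage scores showed no called difference between the 3 and the 6. The NK-over-T score is the mean log2 CPM of 1272 peaks higher in normal NK than T cells minus that of 530 peaks lower in them, and it was 0.57 in mPTCL 1, 0.20 in mPTCL 2 and 0.53 in mPTCL 5. Among the 6 others it ran from -0.11 to 0.71, between T cells at -2.44 and NK cells at 2.72 on average. The groups differed by 0.20 (0.43 ± 0.20 and 0.24 ± 0.28, SD; exact permutation test, two-sided adjusted p = 0.679 over 3 scores). The NKT-over-T score was 1.21, 0.63 and 0.70 in mPTCL 1, mPTCL 2 and mPTCL 5 and 0.73 to 0.98 in the 6 (difference -0.03, permutation adjusted p = 0.857). mPTCL 1 was thus the highest and mPTCL 2 the lowest of all 9, so the 3 did not share a position. The NK-over-NKT score differed by 0.14 (permutation adjusted p = 0.679). With 3 and 6 libraries, a single score of the 3 could not pass after adjustment in this test either.

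**Figure D5:**
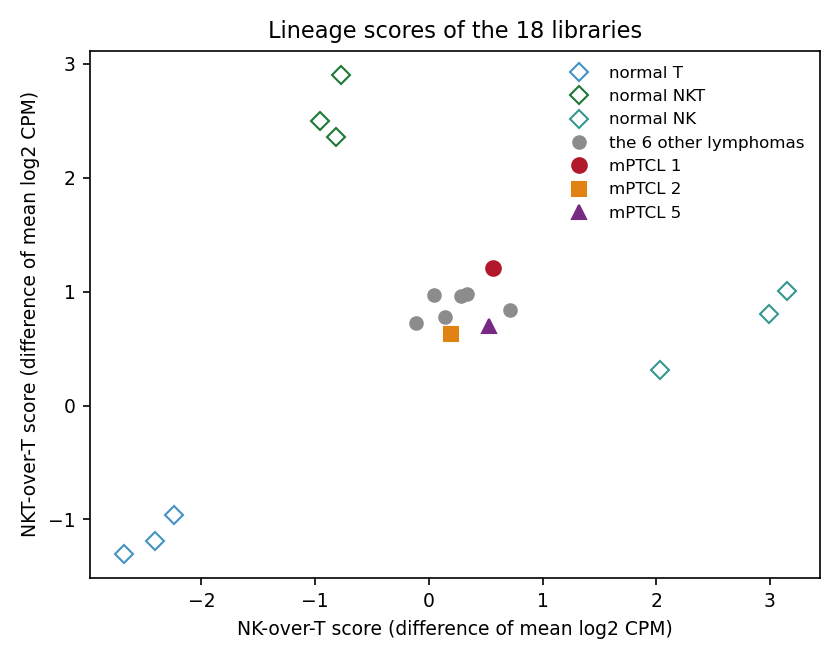
NKT-over-T score against NK-over-T score in all 18 libraries, each a difference of mean log2 CPM; open diamonds are normal libraries, grey dots the 6 other lymphomas. All 9 lymphomas lie between the normal types, with mPTCL 1, 2 and 5 spread through and around the 6 others.

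Likeness between lymphomas was taken over the 60443 peaks outside the block. Spearman's rho of log2 CPM was 0.69 between mPTCL 1 and mPTCL 2, 0.67 between mPTCL 1 and mPTCL 5, and 0.55 between mPTCL 2 and mPTCL 5. The 15 pairs among the 6 others ran from 0.54 to 0.78 (median 0.60), and the 18 pairs across the groups from 0.55 to 0.76 (median 0.65). The median of the 3 pairs among the 3 lymphomas, 0.67, was the highest of these medians, while their values lay within the range of the pairs across the groups. The difference was not tested. Libraries differ in depth, which also bears on these values, and peaks are not independent replicates.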

How the data were processed

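Chromatin accessibility was measured by ATAC-seq. The deposited tables give whole-number counts of reads per peak, not normalized. Per the submitters' processing notes, MACS2 2.1.2, bedtools, edgeR 3.24.3 and build mm10 were used. The peak choice, like the aligner, duplicate filter and Tn5 shift, is not given in the sources used here. The authors' deposited log2 CPM were not used.

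Members and lists were chosen with earlier results of these data known. Peaks at 94.9 to 96.5 Mb of chromosome 3 were left out of library sizes and tests. The main test was edgeR 4.0.16 (TMM, filterByExpr, quasi-likelihood) on the 9 lymphomas in R 4.3.3, with Benjamini-Hochberg adjustment over all features. Gene counts sum all peaks of a symbol, so a peak with 2 symbols counts for both, and gene CPM is scaled to gene library sizes. Chromosome shares and lineage scores were compared by exact permutation tests (scipy 1.17.1), and log2 CPM used a prior count of 2. Alternatives were DESeq2 1.42.0, limma 3.58.1, other scalings, filters and tables, and leaving out each lymphoma. The fit was tested on simulated data. Named peaks were, per direction, the 5 of lowest p with a symbol, a mean of at least 10 counts and no overlap, since none was called. Named genes were a fixed list and the 2 of lowest p per list. Positions are as deposited. Peak sequences and motifs of called peaks are not analysed here, as no genome was used.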

Additional observations from a re-analysis of the deposited data

Results flagged for a closer look

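Among 38 sets of values from the 9 lymphomas, 2 held a value far from the rest, and chance gives about 1 in 20. The chromosome 15 share in mPTCL 2, 1.27 on the log2 scale above the normal mean, had its nearest neighbour at 0.87 and the lowest lymphoma at 0.52. Ncr1 in mPTCL 8 had a log2(CPM + 1) of 0.0, from 0 counts at its 1 peak, with the next lymphoma at 3.29. mPTCL 8 was the shallowest lymphoma, and 0 counts allow up to 4.20 CPM there (3 counts).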

How the results depend on the processing

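The absence of called peaks and genes held in edgeR under other scalings, filters, the smaller table, all 18 libraries and every left-out lymphoma. For genes it was close in some: the lowest edgeR adjusted p was 0.0588 with all 18 libraries, 0.0609 without mPTCL 8 and 0.0707 without mPTCL 5. It was 0.705 in the main fit and 0.9999 without mPTCL 7. DESeq2 called 3 peaks and 3 genes. With the block kept in the fit, 3 peaks and 2 genes outside it were called. The cause was not tested. Without mPTCL 2, the nominal peaks (unadjusted p under 0.05) turned from 1159 higher and 742 lower to 732 and 1067. The mean level of the 3 lymphomas between 95.4 and 96.0 Mb was 5.14-fold over all normal libraries and 6.43-fold over NKT cells alone. Of 1237 values of named peaks and genes under alternatives, 23 changed sign, all at genes, and 5 were called (the Oxr1 and E330035G20Rik peaks and the Socs2 gene). The chromosome 10 peak and the genes Fbln1 and E330035G20Rik, named because DESeq2 called them, are not among these values. The NKT-over-T difference, -0.03, changed sign in 3 alternatives. No autosome or score passed under any alternative run, but with so few libraries a single autosome or score could not pass after adjustment. No paired analysis was possible because the lymphomas carry no replicate numbers shared between the groups compared. Depth ran from 670358 to 4844441 counts in the lymphomas, and the smallest difference that this depth can show was not measured.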
